A study of Mus musculus with 8 samples.

Results

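The prosurvival members of the Bcl2 family were followed between the EpCAM+ and EpCAM- fractions of Zeb1-/- LSK cells, the lineage-negative, SCA-1+, C-KIT+ bone marrow cells that hold stem and early progenitor cells. The members were the 7 genes of the table with the symbols Mcl1, Bcl2, Bcl2l1, Bcl2l2, Bcl2a1a, Bcl2a1b and Bcl2a1d, of 54532 genes in all. The rule that picks them uses gene symbols alone. Each fraction was represented by 4 RNA-Seq libraries. All 8 libraries came from C57BL/6 mice of 8 to 12 weeks that carried Zeb1fl/fl and Mx1-Cre, taken at day 14 after pIpC treatment, the agent that activates Mx1-Cre, had ended. Both fractions therefore carried the deletion, and no library from a control mouse was part of the comparison. Mx1-Cre is driven by an interferon-inducible promoter that is active in blood cells and also in other tissues, so the deletion was not confined to LSK cells. The labels give 4 mice per group and do not say whether the fractions with the same replicate number came from the same mouse.

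BCL2 and its prosurvival relatives hold the mitochondrial outer membrane intact by binding the pore-forming proteins BAX and BAK, and the BH3-only proteins that activate them. A cell that loses this restraint releases cytochrome c, which switches on caspases through the apoptosome. In blood stem and progenitor cells MCL1 is the member best known as indispensable, BCL2 and BCL-XL (encoded by Bcl2l1) act in overlapping lineages, BCL-W is encoded by Bcl2l2, and the A1 proteins are encoded in the mouse by a cluster of near-identical genes. The comparison asks whether transcripts of these proteins differ between Zeb1-/- LSK cells that carry EpCAM on their surface and those that do not.

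The counts summed to 15225714 to 17073546 per EpCAM+ library and to 14114491 to 15929923 per EpCAM- library. Epcam, the gene of the sorting marker, was at 187 ± 32.7 CPM (SD, n = 4; read counts relative to the library size, scaled by TMM) in EpCAM+ libraries and at 3.86 ± 3.61 CPM (SD, n = 4) in EpCAM- libraries. Zeb1 had 261 to 373 counts in EpCAM+ and 129 to 214 counts in EpCAM- libraries. A count over the whole gene does not separate the deleted part and there is no control library, so these counts do not check the deletion. Of the LSK markers, 8 of 10 were higher in EpCAM+ cells and 0 were lower. Over all 13560 genes tested, 21.8% were higher and 20.8% lower (adjusted p under 0.05, edgeR). Kit was above 200 CPM on average in both fractions, while Ly6a, which encodes SCA-1, had 351, 195, 140 and 116 CPM in EpCAM+ replicates 1 to 4 and 71.7, 61.3, 16.4 and 15.7 CPM in EpCAM- replicates 1 to 4. In bulk libraries, fewer cells of a type and less RNA per cell cannot be told apart.

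The A1 genes need their sequences beside their values, because reads can be assigned to a paralog only where the copies differ. Bcl2a1d lies on chromosome 9 (88723285 to 88731914, GRCm38, minus strand), with Bcl2a1a (88956900 to 88962419, plus strand) and Bcl2a1b (89199209 to 89207827, plus strand) further along the same chromosome. Their coding sequences have the same length of 516 bases, 172 codons. Bcl2a1a and Bcl2a1b differ at 11 of these bases, Bcl2a1a and Bcl2a1d at 7, and Bcl2a1b and Bcl2a1d at 6. The stretch shown is coding bases 1 to 120 (reference transcripts of GENCODE, GRCm38), which holds 7 of the 12 positions where the copies are not all alike. Capitals mark those positions.

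Bcl2a1a: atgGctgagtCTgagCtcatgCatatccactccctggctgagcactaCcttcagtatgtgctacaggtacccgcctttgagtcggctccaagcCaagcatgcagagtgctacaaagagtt
Bcl2a1b: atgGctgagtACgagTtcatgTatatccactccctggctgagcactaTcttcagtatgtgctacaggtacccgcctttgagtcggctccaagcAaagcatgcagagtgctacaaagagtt
Bcl2a1d: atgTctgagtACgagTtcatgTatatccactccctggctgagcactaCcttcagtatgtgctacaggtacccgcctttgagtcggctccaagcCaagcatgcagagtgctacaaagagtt

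The stretch lies in the first coding exon, at chr9:88957051-88957170 for Bcl2a1a, chr9:89199360-89199479 for Bcl2a1b and chr9:88731600-88731719 for Bcl2a1d. Relative to Bcl2a1d, with positions counted from the first base of the start codon, Bcl2a1a carries T4G, A11C, C12T, T16C and T22C in this stretch and Bcl2a1b carries T4G, C48T and C94A. Of all 150-base windows of the transcript, 71.8% for Bcl2a1a, 58.1% for Bcl2a1b and 69.7% for Bcl2a1d were found in no other gene of the annotation. For Bcl2a1b, 37.9% of windows were shared with Gm29094, an annotated gene that overlaps it on the same strand and had 0 counts in all 8 libraries. Mcl1 and Bcl2l1 shared no window with any other gene.

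Bcl2a1a and Bcl2a1d were also alike upstream of their annotated starts. In the 250 bases before the start (RefSeq, GRCm38.p6, chr9:88956670-88956919 on the plus strand for Bcl2a1a and chr9:88731851-88732100 on the minus strand for Bcl2a1d), 238 of 256 alignment columns were identical (93.0%). Capitals mark the bases that differ or face a gap. They are shown because Bcl2a1d held most A1 reads and Bcl2a1a was the copy with no read in EpCAM- cells.

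Bcl2a1a promoter: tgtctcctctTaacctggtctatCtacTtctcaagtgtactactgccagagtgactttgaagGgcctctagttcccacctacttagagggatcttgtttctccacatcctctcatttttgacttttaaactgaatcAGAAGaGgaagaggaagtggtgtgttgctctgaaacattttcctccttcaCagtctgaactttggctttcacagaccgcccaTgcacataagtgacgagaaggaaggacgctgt
Bcl2a1d promoter: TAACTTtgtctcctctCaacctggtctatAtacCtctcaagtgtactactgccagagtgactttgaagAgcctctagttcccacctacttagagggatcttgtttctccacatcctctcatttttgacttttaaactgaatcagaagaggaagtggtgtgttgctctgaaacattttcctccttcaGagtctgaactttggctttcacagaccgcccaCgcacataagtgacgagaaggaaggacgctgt

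In windows from 250 bases before to 50 bases after each annotated start (300 bases, both strands), the E-box CAGGTG, which ZEB1 can bind, was found before none of the 7 members, against 20.21% of 32851 promoters. TTCNNNGAA, the core of the STAT site, was found before none of the members, against 8.3% of all promoters. The absence of a match says only that these letters are not in this window. Other sequences that ZEB1 may bind were not searched.

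Bcl2a1d carried most A1 reads and, among the members that passed the count filter, had the largest fitted fold change. It had 143, 12, 70 and 196 counts in EpCAM+ replicates 1 to 4, which are 9.35, 0.680, 3.91 and 12.7 CPM. In EpCAM- replicates 1 to 4 it had 3, 3, 10 and 3 counts, which are 0.187, 0.222, 0.683 and 0.221 CPM. EpCAM+ replicates 1 and 4 were the highest, and EpCAM+ replicate 2 was level with EpCAM- replicate 3, so the fractions overlapped. The log2 fold change was 4.30 (SE 0.85, 95% interval 2.42 to 6.18, adjusted p = 0.00293, edgeR), and an exact permutation test of the CPM (two-sided) gave p = 0.0571 (n = 4 per fraction). Over each fraction as a whole the counts were 421 and 19, a ratio per depth of 19.3 with an exact 95% interval of 12.2 to 32.4 that covers counting error only. Bcl2a1d reached the count filter through its EpCAM+ libraries alone. The log2 fold change was 4.93 without EpCAM- replicate 3. It was 2.77 (adjusted p = 0.0243, edgeR) without EpCAM+ replicates 1 and 4 together, which were left out as the libraries with the most dendritic cell marker counts. They were also the highest for Bcl2a1d itself, so leaving them out had to lower the value.

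Bcl2a1a had 6, 1, 4 and 30 counts in EpCAM+ replicates 1 to 4 and 0 counts in each EpCAM- library. The fractions did not overlap, by 1 count in EpCAM+ replicate 2 against 0 in the EpCAM- libraries. Against a floor of 3 counts over the EpCAM- fraction, the pooled EpCAM+ counts of Bcl2a1a gave a ratio per depth of 11.9. It was 4.17 without EpCAM+ replicate 4, which held 30 of the 41 counts. Neither ratio is a lower bound, because the error of the EpCAM+ counts and the spread between libraries are left out. The gene was below the count filter. With every gene of at least 1 count kept, its adjusted p was 0.0143 (edgeR), in a fit where 11.8% of 25237 genes were called higher in EpCAM+ cells. Bcl2a1a entered that fit through its EpCAM+ counts alone and could only come out higher. Its adjusted p is therefore no support for a direction.

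Bcl2a1b had 7, 0, 4 and 8 counts in EpCAM+ replicates 1 to 4 and 0, 0, 0 and 2 counts in EpCAM- replicates 1 to 4. The ratio per depth was 8.29, with an exact 95% interval of 2.00 to 73.4 for counting error alone. The fractions overlapped, and the adjusted p was 0.118 in the fit without a count filter (edgeR). A sum over the 3 copies does not depend on how the counted reads were split between them. Reads left uncounted because they align to several copies would be missing from it as well. The summed A1 genes were at 10.2, 0.737, 4.36 and 15.2 CPM in EpCAM+ replicates 1 to 4. In EpCAM- replicates 1 to 4 they were at 0.187, 0.222, 0.683 and 0.368 CPM. The summed fractions did not overlap, by 13 counts in EpCAM+ replicate 2 against 10 counts in EpCAM- replicate 3. The exact two-sided permutation test gave p = 0.0286 (n = 4 per fraction), as low as it can go without pairing. For Bcl2a1d alone the fractions overlapped. The log2 fold change of the sum was 4.35 (SE 0.85, adjusted p = 0.00286, edgeR). Like Bcl2a1d, the sum reached the count filter through its EpCAM+ libraries alone, so these p-values are no support for a direction. Bcl2a1d contributed 83.8% to 92.3% of the summed counts in EpCAM+ libraries.

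**Figure D1:**
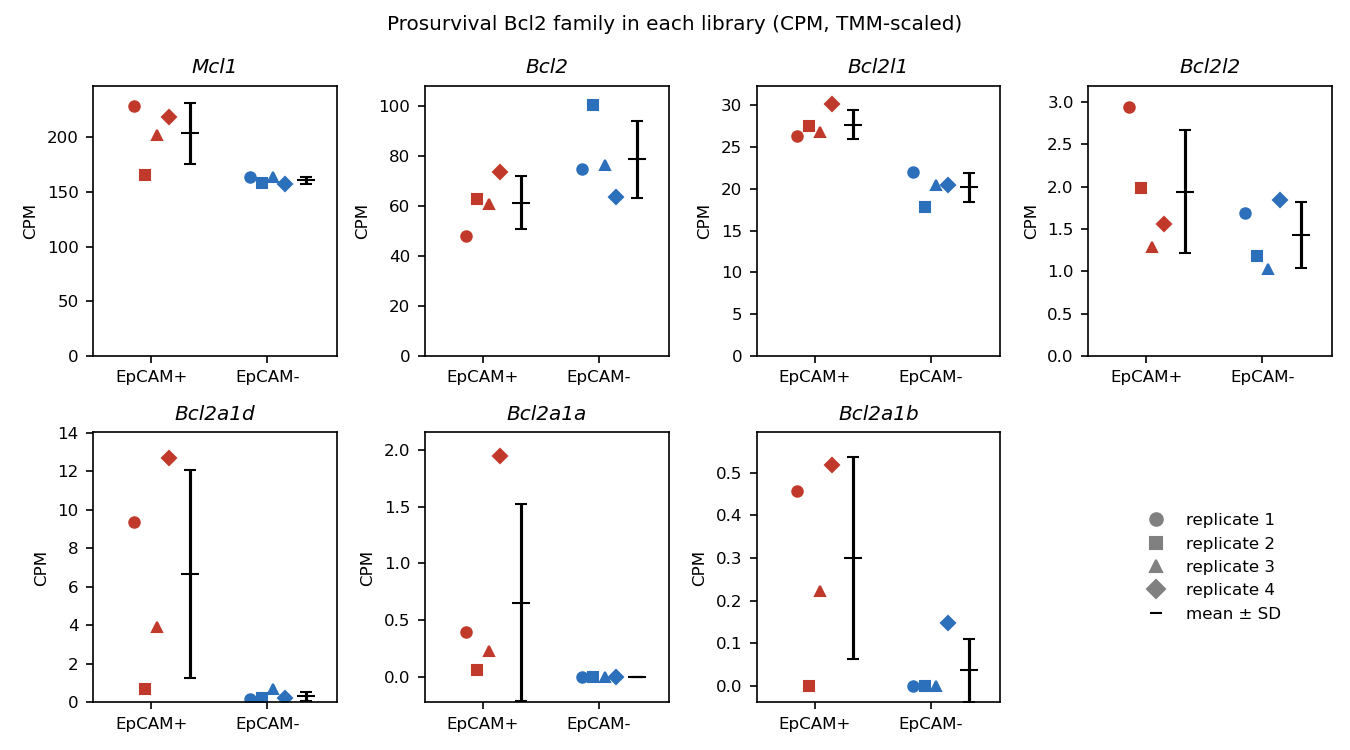
CPM (TMM-scaled, vertical axes starting at or below 0) of the 7 members in each library, by fraction, with a marker shape for each replicate number and the mean ± SD in black. Mcl1 and Bcl2l1 are higher in every EpCAM+ library than in any EpCAM- library, Bcl2 overlaps, and the A1 genes are highest in EpCAM+ replicates 1 and 4 (Bcl2a1d 9.35 and 12.7 CPM).

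Mcl1, which encodes a short-lived prosurvival protein that binds BAK and several BH3-only proteins, lies on chromosome 3 (95658788 to 95663176, plus strand). It had 229, 166, 202 and 218 CPM in EpCAM+ replicates 1 to 4 and 163, 158, 163 and 157 CPM in EpCAM- replicates 1 to 4. The fractions did not overlap, and EpCAM+ replicate 2 was close to the EpCAM- libraries. The spread was unequal, with a coefficient of variation of 13.6% among EpCAM+ and 2.01% among EpCAM- libraries. Mcl1 was higher in EpCAM+ cells by 0.34 on the log2 scale (SE 0.10, 95% interval 0.13 to 0.55, adjusted p = 0.0160, edgeR), a 1.27-fold difference. The exact two-sided permutation test gave p = 0.0286 (n = 4 per fraction). The call held without each library in turn (adjusted p 0.00244 to 0.0463, edgeR). It was lost without EpCAM+ replicates 1 and 4 together, where the log2 fold change was 0.19 (adjusted p = 0.191, edgeR). These libraries also had the highest Mcl1 CPM, so leaving them out had to lower the difference. The call was also lost without EpCAM- replicates 3 and 4, the libraries with the fewest Ly6a counts, at a log2 fold change of 0.33 (adjusted p = 0.102, edgeR).

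Bcl2l1 lies on chromosome 2 (152780668 to 152831728, minus strand) and encodes BCL-XL. It had 26.3, 27.5, 26.8 and 30.2 CPM in EpCAM+ replicates 1 to 4 and 21.97, 17.8, 20.5 and 20.4 CPM in EpCAM- replicates 1 to 4. Every EpCAM+ library was above every EpCAM- library, and the spread was small in both fractions (coefficients of variation 6.20% and 8.52%). The log2 fold change was 0.46 (SE 0.10, 95% interval 0.24 to 0.67, adjusted p = 0.00401, edgeR), a 1.37-fold difference, with an exact permutation p of 0.0286 (two-sided, n = 4 per fraction). It stayed past the threshold without each library in turn (log2 fold change 0.39 to 0.49). It also did so without EpCAM+ replicates 1 and 4 together (0.42, adjusted p = 0.0407, edgeR) and without EpCAM- replicates 3 and 4 together (0.46, adjusted p = 0.0357, edgeR).

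Bcl2 itself, on chromosome 1 (106538178 to 106714274, minus strand), was the only member with a lower mean in EpCAM+ cells. It had 48.1, 62.8, 60.9 and 73.7 CPM in EpCAM+ replicates 1 to 4 and 74.6, 100.2, 76.2 and 63.5 CPM in EpCAM- replicates 1 to 4. EpCAM- replicate 2 was the highest and EpCAM+ replicate 1 the lowest, and the fractions overlapped because replicate 4 was high among EpCAM+ and low among EpCAM- libraries. The log2 fold change was -0.36 (SE 0.15, 95% interval -0.70 to -0.02) and did not pass the threshold after adjustment (adjusted p = 0.0828, edgeR, unadjusted p 0.0408). The exact two-sided permutation test gave p = 0.0571 (n = 4 per fraction). Without EpCAM+ replicate 4 the log2 fold change was -0.46 (adjusted p = 0.0440, edgeR) and without EpCAM- replicate 4 it was -0.45 (adjusted p = 0.0415, edgeR).

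Bcl2l2, on chromosome 14 (54883377 to 54888234, plus strand), was a gene of few reads. It had 45, 35, 23 and 24 counts in EpCAM+ replicates 1 to 4 and 27, 16, 15 and 25 counts in EpCAM- replicates 1 to 4. The ranges overlapped. The log2 fold change was 0.43 (SE 0.33, adjusted p = 0.312, edgeR) and its 95% interval, -0.30 to 1.16, includes differences as large as those of Mcl1 and Bcl2l1. The coefficients of variation were 37.4% among EpCAM+ and 27.3% among EpCAM- libraries, and a difference was not detected.

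In all, 5 of the 7 members passed the count filter and 3 of these, Bcl2a1d, Bcl2l1 and Mcl1, were called, each higher in EpCAM+ cells. Bcl2a1d could be tested only because of its EpCAM+ counts, so its place in this count is no support for a direction of the family. With 10 counts required in every library it left the test, and 2 members were called, in a fit that called 5076 of 11937 genes. Of all 13560 genes tested, 42.6% were called in either direction, 21.8% higher and 20.8% lower, so calls are common in this comparison. The fractions did not overlap in CPM for Mcl1 and Bcl2l1 among the tested members, against 40.1% of all tested genes. Against a threshold of a 1.2-fold change, which 23.5% of genes passed, Bcl2a1d (adjusted p = 0.00492) and Bcl2l1 (adjusted p = 0.0437) passed and Mcl1 did not (adjusted p = 0.206, edgeR's test against a fold). Over all genes in the test, the log2 fold change had a median of 0.02.

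**Figure D2:**
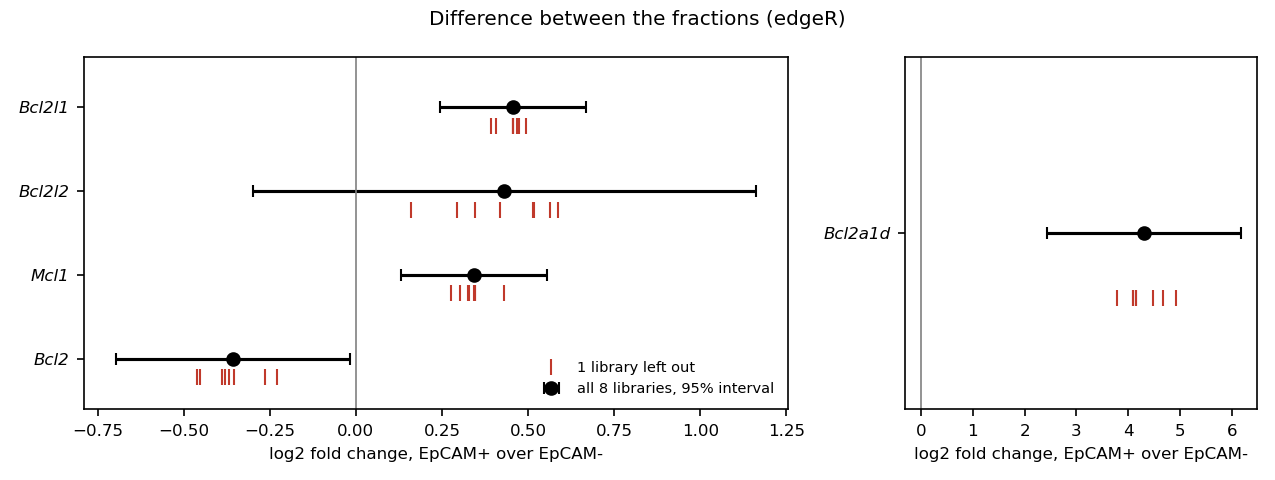
Log2 fold change of EpCAM+ over EpCAM- cells for the 5 tested members (black points, with 95% intervals from edgeR) and the values with 1 library left out (red ticks), with Bcl2a1d on an axis of its own. The intervals of Bcl2l1, Mcl1 and Bcl2a1d lie above 0, that of Bcl2 ends at -0.02 and that of Bcl2l2 spans 0.

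The balance between members within a library does not depend on the scaling between libraries. The count ratio of Mcl1 to Bcl2 was 4.76, 2.64, 3.31 and 2.96 in EpCAM+ replicates 1 to 4 and 2.19, 1.58, 2.14 and 2.48 in EpCAM- replicates 1 to 4. Every EpCAM+ library had a larger ratio than any EpCAM- library, and the mean log2 ratio was higher by 0.69. The count ratio of Bcl2 to Bcl2l1 was 1.83, 2.28, 2.27 and 2.44 in EpCAM+ replicates 1 to 4, below the 3.39, 5.61, 3.72 and 3.10 of EpCAM- replicates 1 to 4, a difference of -0.81 in the mean log2 ratio. For both ratios the exact two-sided permutation test gave p = 0.0286 (n = 4 per fraction), the smallest possible without pairing. This became 0.0857 after Benjamini-Hochberg adjustment over the 6 ratios between the single-copy members. Neither therefore passes the threshold after adjustment. The ratio of Mcl1 to Bcl2l1 differed by -0.13 on the log2 scale between the fractions, with overlapping libraries (exact permutation p = 0.343, adjusted 0.514). The 3 ratios that involve Bcl2l2 differed by -0.75 to 0.06, with exact permutation p-values from 0.171 to 0.886.

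**Figure D3:**
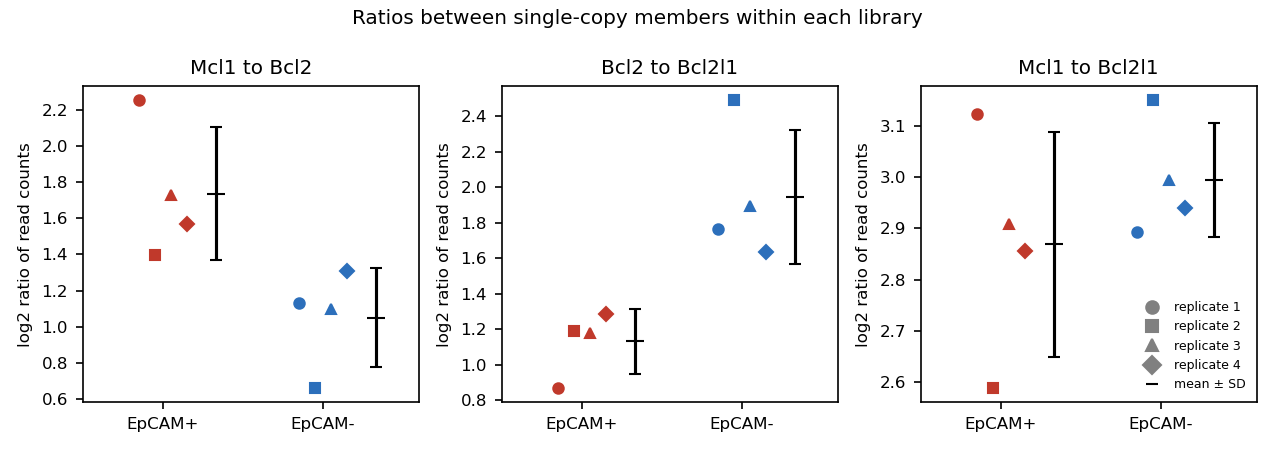
Log2 ratio of read counts between pairs of single-copy members in each library, by fraction, with the mean ± SD in black (vertical axes do not start at 0). The fractions are separate for Mcl1 to Bcl2 and for Bcl2 to Bcl2l1 and overlap for Mcl1 to Bcl2l1.

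Levels of different genes were compared per kilobase of the gene length given in the table. On that scale Mcl1 was the most abundant member in all 8 libraries, at 59.6 ± 8.13 CPM per kilobase (SD, n = 4) in EpCAM+ and 47.0 ± 0.943 (SD, n = 4) in EpCAM- cells. In EpCAM+ cells Bcl2a1d (7.72 ± 6.25 CPM per kilobase), Bcl2 (6.70 ± 1.15) and Bcl2l1 (6.04 ± 0.374) followed with overlapping ranges. In EpCAM- cells Bcl2 (8.58 ± 1.69 CPM per kilobase) was above Bcl2l1 (4.40 ± 0.375) in all 4 libraries, and both were far above Bcl2a1d (0.380 ± 0.274) and Bcl2l2 (0.321 ± 0.0875), which overlapped. As a share of the level summed over the 7 members, Mcl1 made up 73.6% in EpCAM+ and 77.4% in EpCAM- cells, Bcl2 8.43% and 14.1%, Bcl2l1 7.58% and 7.25%, and Bcl2a1d 8.59% and 0.623% (means of 4 libraries). The share of Bcl2a1d ran from 1.26% to 15.2% among the EpCAM+ libraries. In the FPKM of the same table, which rest on other gene lengths, Mcl1 was again first, with shares of 70.04% and 71.1%, but Bcl2l1 (19.3 FPKM) was above Bcl2 (12.5 FPKM) in all 4 EpCAM+ libraries, and the order of these genes in EpCAM- libraries was mixed (13.3 and 15.2 FPKM). On this scale the mean of Bcl2a1d in EpCAM+ cells was below those of Mcl1, Bcl2l1 and Bcl2 (7.79 FPKM, with a range that overlapped that of Bcl2), and its share was 5.24% in EpCAM+ and 0.359% in EpCAM- cells. The order of Bcl2, Bcl2l1 and Bcl2a1d in EpCAM+ cells thus rests on the length used. The FPKM imply a length of 1473 bases for Bcl2l1, against 4586 in the length column.

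**Figure D4:**
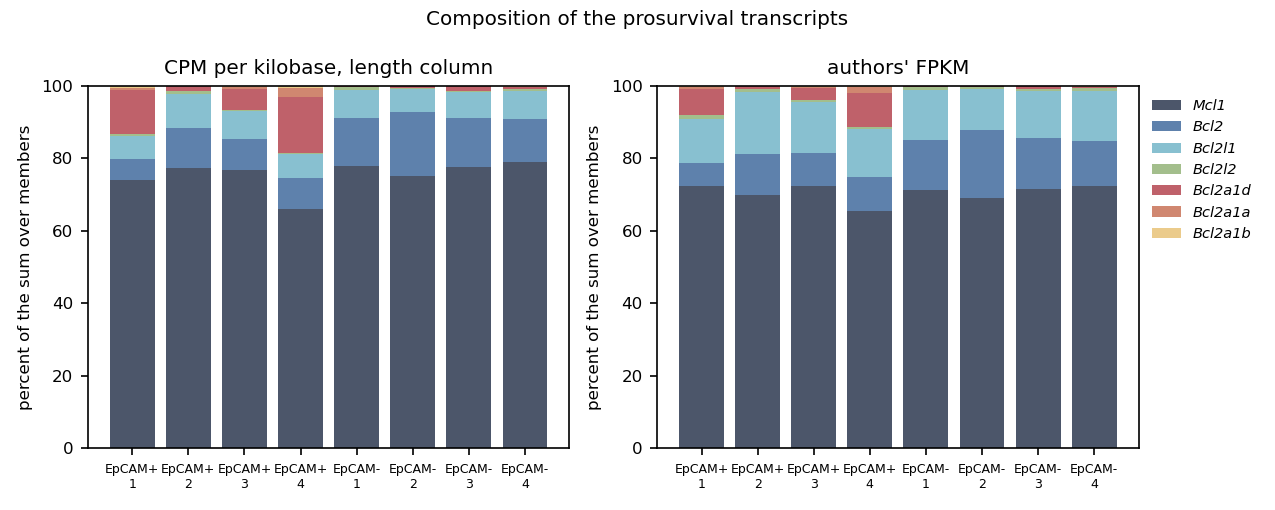
Percent of the summed level of the 7 members contributed by each, in each library, from CPM per kilobase of the length column (left) and from the authors' FPKM (right). Mcl1 is the largest part of every bar (66.1% to 79.0% on the left), and Bcl2a1d is visible in EpCAM+ replicates 1, 3 and 4.

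Bcl2a1d and Mcl1 were highest in the EpCAM+ libraries with the highest levels of dendritic cell markers. Xcr1, a chemokine receptor of cross-presenting dendritic cells, was at 147, 11.5, 35.8 and 131 CPM in EpCAM+ replicates 1 to 4 and at 0.137 to 0.811 CPM in EpCAM- libraries. Clec9a, a receptor for dead cells on the same dendritic cells, was at 27.5, 1.25, 5.14 and 26.3 CPM in EpCAM+ replicates 1 to 4 and at 0 to 0.562 CPM in EpCAM- libraries. Of 10 dendritic cell markers, 8 were tested, 5 were higher and 0 lower in EpCAM+ cells, against 21.8% and 20.8% of all tested genes. Flt3, among the higher ones, is also on the LSK list. Irf8 (log2 fold change 0.78), Bst2 (-0.02) and Zbtb46 (-0.29) were not called. Below the count filter, Siglech had the higher mean in EpCAM+ cells and Cd209a in EpCAM- cells. The summed level of the list ran from 455 to 1147 CPM in EpCAM+ and from 364 to 553 CPM in EpCAM- libraries. Flt3, Irf8 and Bst2 weighed most in this sum (means of 366, 257 and 110 CPM in EpCAM+ cells), so it does not follow Xcr1 and Clec9a alone. EpCAM+ replicates 1 and 4 were highest and replicate 2 lowest for Xcr1, Clec9a, Bcl2a1d and Mcl1. Bcl2l1 did not follow this order, with replicate 1 lowest and replicate 4 highest. The part of dendritic cell RNA in the results for Bcl2a1d and Mcl1 was not tested. The values without EpCAM+ replicates 1 and 4 are those given above. They do not test it, because these libraries were also the highest for both genes. Plasma cell transcripts followed another order, with Jchain at 3525, 221, 429 and 199 CPM in EpCAM+ replicates 1 to 4 and at 0 to 0.273 CPM in EpCAM- libraries. The order of Xcr1 was not particular to the dendritic cell list. In EpCAM+ replicates 1 to 4, Ms4a1 of the B cell list was at 12.8, 1.19, 2.29 and 7.26 CPM. Ccr2 of the monocyte and macrophage list was at 101, 8.05, 28.3 and 90.7 CPM there. Cd79b and Csf1r of the same lists did not follow that order.

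**Figure D5:**
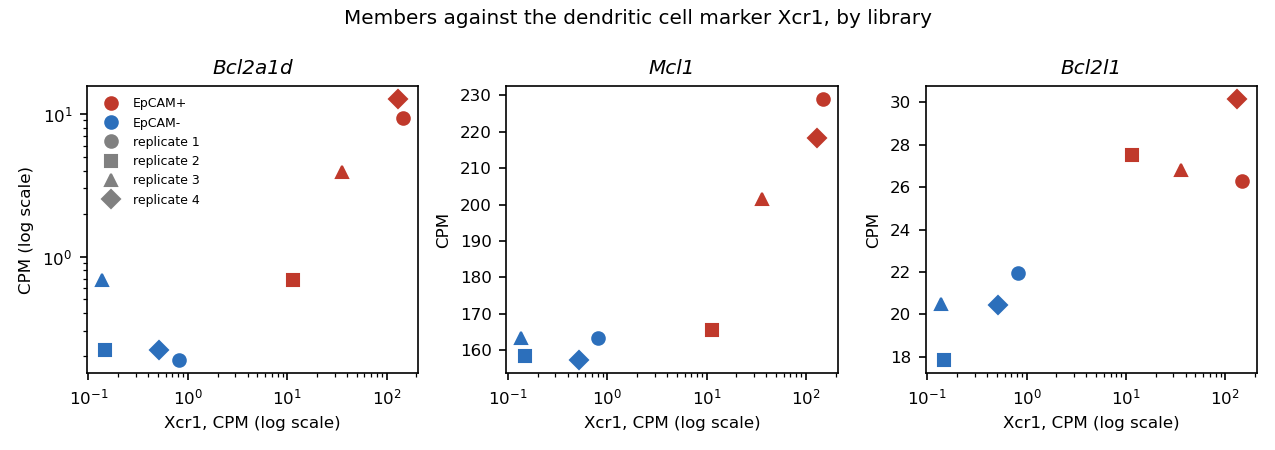
CPM of Bcl2a1d (log scale), Mcl1 and Bcl2l1 (linear scales that do not start at 0) against CPM of Xcr1 (log scale) in each library, coloured by fraction with a marker shape for each replicate number. Bcl2a1d and Mcl1 are ordered as Xcr1 is among EpCAM+ libraries apart from an exchange of replicates 1 and 4 for Bcl2a1d, while Bcl2l1 is not.

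Markers of other blood cells differed between the fractions as well, in a comparison that called 21.8% of all tested genes higher and 20.8% lower. Of the neutrophil markers 4 of 10 tested were lower in EpCAM+ cells and 0 higher, with the smallest adjusted p for Mpo, Prtn3 and Elane, genes of primary granule enzymes, with a summed level of 1195 to 1939 CPM in EpCAM+ and 12011 to 18672 CPM in EpCAM- libraries. Of 9 erythroid markers 7 were lower and 1 higher, with Klf1 and Epor among those with the smallest adjusted p. Of the mast cell and basophil markers 4 of 6 tested were lower, and of the monocyte and macrophage markers 5 of 8 were lower and 1 higher. Of the B cell markers 2 of 4 tested were higher and Pax5 had no count in any library, and of the plasma cell markers 3 of 5 tested were higher. Of the megakaryocyte and platelet markers 2 of 8 were higher, and of the T and NK cell markers 1 of 2 tested was higher while Cd3e was at or near 0 in all libraries. The part of these cells in the results for the prosurvival genes was not tested.

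The genes most like each member over the 8 libraries were found by Pearson's r of log2 CPM among 8636 protein-coding genes with a mean of at least 10 CPM. The libraries share their fraction and its cell composition, so the coefficients are descriptions. Bcl2 was most like H2afy (r = 0.98), Bex6 (0.96) and Kif18a (0.96), with H2afy highest in EpCAM- replicate 2 (2760 CPM) and lowest in EpCAM+ replicate 1 (1635 CPM), as Bcl2 was. Bcl2l1 was most like Casp2, Spty2d1 and Rasa3 (r = 0.97 to 0.98), and Oraov1 and Rnf157 (both r = 0.88) were among the 3 genes most like Bcl2l2. Mcl1 was most like Camk1d, Olfm1 and Rab7b (r = 0.97 to 0.98), 3 genes with their highest levels in EpCAM+ replicates 1 and 4. Bcl2a1d was most like Serpinb6b (r = 0.98), Dpp4 (0.97) and Mcl1 (0.97). After each fraction's mean was taken away, r between Bcl2a1d and Mcl1 was 0.93, and r between Bcl2l1 and Mcl1 was 0.10.

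The opponents of the prosurvival proteins and other genes around them were read from lists of 63 gene entries in 8 groups. Of all 13560 tested genes, 21.8% were called higher, 20.8% lower and 42.6% in either direction. The counts of called genes in the lists were not tested against these shares. Of the pore-forming effectors, Bax fell in EpCAM+ cells, from 106, 117, 116 and 116 CPM in EpCAM- replicates 1 to 4 to 84.7, 80.7, 69.9 and 82.9 CPM in EpCAM+ replicates 1 to 4 (log2 fold change -0.52, SE 0.08, adjusted p = 0.00074, edgeR). Bok, an effector that can act without activation by BH3-only proteins, was higher, at 14.4, 16.4, 13.7 and 13.4 CPM in EpCAM+ replicates 1 to 4 and 7.68, 8.88, 6.48 and 4.63 CPM in EpCAM- replicates 1 to 4 (log2 fold change 1.07, SE 0.19, adjusted p = 0.00163, edgeR). In neither gene did the fractions overlap, as in 40.1% of all tested genes. Bak1, which encodes BAK, was at 1.07 CPM in EpCAM+ and 1.17 CPM in EpCAM- cells on average and did not pass the test.

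Among 8 BH3-only antagonists 5 were tested, 1 was lower and 0 were higher, against 20.8% and 21.8% of all tested genes. The median of the list was -0.18 on the log2 scale. Bid, which links death receptors to mitochondria, was lower in every EpCAM+ library (77.6 to 97.4 CPM) than in any EpCAM- library (127 to 139 CPM), with a log2 fold change of -0.59 (SE 0.08, adjusted p = 0.000466, edgeR). Bcl2l11, which encodes BIM, had a log2 fold change of -0.19 (adjusted p = 0.192, edgeR), Bad one of -0.18, Bbc3 (PUMA) one of 0.43 (adjusted p = 0.0646, edgeR) and Pmaip1 (NOXA, a partner of MCL1) one of 0.63 (adjusted p = 0.269, edgeR). None of these 4 passed the threshold. Bik, Bmf and Hrk were below the count filter.

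Of the other genes named after Bcl2, Bcl2l14 was higher, at 21.2, 11.3, 12.3 and 22.2 CPM in EpCAM+ replicates 1 to 4 against 10.5, 8.81, 5.80 and 6.47 CPM in EpCAM- replicates 1 to 4 (log2 fold change 1.08, adjusted p = 0.00931, edgeR), again with EpCAM+ replicates 1 and 4 the highest. Bcl2l13, a mitochondrial protein with a role in mitophagy, was lower (log2 fold change -0.80, adjusted p = 0.00238, edgeR). Bcl2l12 had a log2 fold change of -0.25 (adjusted p = 0.0848, edgeR), and Bcl2l10, Bcl2l15 and Bcl2a1c were at or near 0.

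Of 11 binding partners of the prosurvival proteins, 1 was higher and 5 were lower, against 21.8% and 20.8% of all tested genes. The median of the list was -0.28 on the log2 scale beside 0.02 over all genes. The lower genes were Vdac2 (-0.50 on the log2 scale), which encodes a channel that holds BAK at mitochondria, Bag1 (-0.53), a co-chaperone named for its binding to BCL2, Fkbp8 (-0.33), which anchors BCL2 at mitochondria, Becn1 (-0.28) and Bnip1 (-0.33). Bnip3, a mitophagy receptor, was higher (0.28). Among 7 tested MCL1 turnover enzymes, Gsk3b, a kinase that marks MCL1 for destruction, was higher (log2 fold change 0.27, adjusted p = 0.0385, edgeR) and 0 were lower.

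Downstream of mitochondria, 3 of 8 apoptosome genes and their inhibitors were lower and 1 was higher, against 20.8% and 21.8% of all tested genes. Among the lower genes, Htra2, which encodes a mitochondrial protease, fell by 0.95 on the log2 scale (adjusted p = 0.000349, edgeR), and Cycs, which encodes cytochrome c, fell by 0.62 (adjusted p = 0.000715, edgeR). Xiap, a direct caspase inhibitor, was higher by 0.44 (adjusted p = 0.0106, edgeR). Apaf1, the core of the apoptosome, had a log2 fold change of -0.21 and did not pass the test (adjusted p = 0.210, edgeR).

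Of 11 factors known to induce prosurvival genes, 3 were higher and 2 lower, against 21.8% and 20.8% of all tested genes. Relb, an NF-kB subunit of the noncanonical pathway, was higher by 1.56 on the log2 scale (14.7, 9.53, 10.3 and 9.21 CPM in EpCAM+ replicates 1 to 4 and 5.68, 3.92, 2.53 and 2.57 CPM in EpCAM- replicates 1 to 4). Its partner Nfkb2 was higher by 0.62 and Stat3 by 0.65. Myb (-0.35) and Atf4 (-0.32) were lower. Rel and Rela, the subunits best known for inducing A1 and Bcl2l1, had log2 fold changes of 0.28 and 0.02 and did not pass the test.

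Of 8 receptors for survival cytokines 7 were tested, 3 were higher and 3 lower, against 21.8% and 20.8% of all tested genes. Among the higher genes, Flt3 differed by 0.88 on the log2 scale and Kit by 0.45. Epor, the erythropoietin receptor, fell by 2.72, Il3ra by 0.52 and Csf2rb by 0.42. Il7r was below the count filter, and Csf3r had a log2 fold change of 0.04. The direction of every called gene in these lists was the same when libraries were scaled by DESeq2's size factors, upper quartiles or library totals.

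Few genes overlapped the members on the chromosome. Bcl2 overlapped the antisense gene D630008O14Rik (0 to 6 counts per library), Gm37053 (0 to 8 counts) and Mir3473f (0 counts), Bcl2l2 overlapped Gm20521 on the same strand (0 to 2 counts), and Bcl2a1d overlapped the antisense gene Gm10634 (0 to 3 counts). Bcl2a1b overlapped Gm29094, as given above. Reads from genes that overlap on opposite strands cannot be told apart where the counting does not use strand. Where genes overlap on the same strand, as with Gm37053, Gm20521 and Gm29094, strand does not separate their reads. The sources used here state neither the use of strand nor how reads in an overlap were counted.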

How the data were processed

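RNA was amplified with SMART-Seq v4 from 4 EpCAM+ and 4 EpCAM- samples of Zeb1-/- LSK cells. Per the labels, the authors aligned reads to GRCm38.p6 with STAR 2.6.1d, deposited whole-number counts per gene from featureCounts 1.5.0-p3, and compared fractions with DESeq2 1.20.0. The FPKM in the same table were computed by the authors and imply other gene lengths than its length column. The table also holds the authors' own comparisons (fold changes, p-values) of the fractions and of 4 library pairs, which were not used. The annotation release, strandedness and treatment of reads aligning to several genes are not given in the sources used here.

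Genes were kept by filterByExpr by fraction, scaled by TMM and tested with edgeR 4.0.16 (quasi-likelihood, two-sided, Benjamini-Hochberg, threshold 0.05 on the adjusted p) in R 4.3.3 over all 13560 genes kept. Standard errors came from the F statistic. CPM use the TMM-scaled library size. Count ratios used a pseudocount of 0.5. A floor of 3 counts is 0.168 to 0.222 CPM per library. Intervals and floors cover counting error only, since reads carry no molecular identifiers. Single values were compared with exact permutation tests (scipy 1.17.1). On simulated counts for this comparison with 13560 genes, 133 of 194 changed genes tested were recovered with 9 false calls. In the real counts 5779 genes were called, many more than were changed there. The changed genes were all given the same fold, larger than the differences of Mcl1 (1.27-fold) and Bcl2l1 (1.37-fold). Recovery of differences as small as those of Mcl1 and Bcl2l1 was not tested. Members, lists and alternatives were chosen with earlier results of these data known. Named genes were all members, list members called (the 6 with the smallest adjusted p), up to 3 per marker list, genes carrying a list's name, the 3 genes most like each member, and genes overlapping a member. Zeb1 and list members outside this rule were named after their values were seen. A few genes picked by this rule are not reported here. The March5 symbol was not matched in the table.

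Whether the replicate numbers pair the samples is not given in the labels. The main fit and the exact permutation tests treated the libraries as unpaired, and the replicate block is the paired alternative. Deviations from the fraction means were correlated between same-numbered libraries (r across genes 0.205 to 0.356 in 4 pairs, against -0.216 to 0.0396 in 12 other pairs). The labels give 4 mice per group without tying libraries to animals, so p-values measure the spread between these samples. No library was a duplicate of another. Alternatives were DESeq2 1.42.0, limma-trend (limma 3.58.1, prior count 2), other scalings and filters, protein-coding genes alone, the replicate block, each library left out, the A1 copies summed and a 1.2-fold threshold.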

Additional observations from a re-analysis of the deposited data

Results flagged for a closer look

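In 25 groups of 4 libraries, the highest or lowest library was examined for a gap to the next that exceeds Dixon's critical value, which chance gives in about 5% of groups. Bcl2a1b in EpCAM- replicate 4 (0.147 CPM, 2 counts, with 0 in the other EpCAM- libraries) showed such a gap. Bcl2a1d in EpCAM- replicate 3 (0.683 CPM, 10 counts, with 3 in each other EpCAM- library) showed it as well, with a gap of 0.930 of the range.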

How the results depend on the processing

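Of 104 alternative fold changes of the tested members, 99 kept their direction and their side of the threshold, and no value past its threshold changed sign under any alternative run. For Mcl1, the 1.2-fold threshold (log2 fold change 0.34), leaving out EpCAM+ replicates 1 and 4 together (0.19) and leaving out EpCAM- replicates 3 and 4 together (0.33) ended the call. The last 2 were chosen after the data were seen and also leave fewer libraries. With 1 library left out, log2 fold changes were -0.46 to -0.23 for Bcl2 (past the threshold in 2 of 8 fits, without replicate 4 of either fraction), 0.39 to 0.49 for Bcl2l1, 0.16 to 0.59 for Bcl2l2, 0.28 to 0.43 for Mcl1 and 3.78 to 4.93 for Bcl2a1d. The fit with the replicate block, which takes same-numbered libraries as pairs, changed no call of a member. Its log2 fold changes were -0.36 for Bcl2 (adjusted p = 0.0591, edgeR), 0.46 for Bcl2l1, 0.42 for Bcl2l2, 0.33 for Mcl1 and 4.11 for Bcl2a1d. It called 3 members and 6818 of all 13560 genes, against 5779 genes in the main fit. Without a count filter 4 members were called, in a fit that called 5740 of 25237 genes. The added member, Bcl2a1a, was tested through its EpCAM+ counts alone, so its call is no support for a direction. With 10 counts required in every library 2 members were called, in a fit that called 5076 of 11937 genes. That filter removes Bcl2a1d from the test. Under upper-quartile scaling and library totals the median of all genes moved to 0.11, with 3642 and 3476 genes called higher against 2083 and 2066 lower (2961 against 2818 with TMM), and Bcl2 moved to -0.27 under both. With the authors' FPKM the share of Bcl2a1d in EpCAM+ cells was 5.24% in place of 8.59%, that of Mcl1 in EpCAM- cells 71.1% and that of Bcl2l1 was 14.0% in EpCAM+ and 13.0% in EpCAM- cells. With 1 library left out, the log2 ratio of Mcl1 to Bcl2 differed by 0.51 to 0.80 and that of Bcl2 to Bcl2l1 by -0.92 to -0.63. Counting error weighs most on Bcl2l2, Bcl2a1a and Bcl2a1b, with at most 45, 30 and 8 counts in a library.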
